A study of Mus musculus with 12 samples.

Results

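The 6 libraries described here came from 3 mouse liver tumour cell lines, T1, T2 and T3, each treated with the BRAF inhibitor PLX4720 or with DMSO, its solvent. They were chosen by their titles, which name a primary tumour line and a treatment, and they are 6 of the 12 libraries of the series. The other 6 come from 3 lymph node metastasis lines, M1, M2 and M3, treated in the same way. For every line the labels give the genotype BRAFV600E with p53 knockout, so the DMSO libraries carry both changes too, and the design text names mice in which hepatocytes express BRAFV600E and lack Trp53 or Cdkn2a. Cells grew in high glucose medium with serum and received 2 µM PLX4720 or DMSO for 48 h. Each line gave 1 library per treatment, so the line is the replicate (n = 3). P-values set the change within lines against the spread of such changes between lines, estimated from the lines of both sites together. The labels do not say whether lines came from separate animals, and T3, M2 and M3 share a number in the names of their deposited tables.

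BRAF is a kinase that activates MEK, which activates ERK, and the V600E form does so without an upstream signal. ERK raises transcription of its own inhibitors, the dual specificity phosphatases and the Sprouty and Spred proteins, and of ETS factors such as Etv4 and Etv5. PLX4720 binds the mutant kinase, and in cells that keep active receptor tyrosine kinases the loss of these inhibitors is known to let growth factor signalling recover. The question that the title of the series sets is whether BRAF inhibition raises Tgfb2 in such cells.

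Library totals in the primary lines were 34794077 to 39288748 fragments assigned to genes, and 16555 genes had enough fragments to be tested. Levels are given as CPM, the share of a library's fragments on a fixed common scale, after correction between libraries, and changes as fitted log2 values, PLX4720 against DMSO within lines, with a standard error (SE). The PLX4720 library of T3 stands apart: mitochondrial genes took 3.67% of its fragments, against 0.476% to 0.712% in the other 5 primary libraries. Trp53 transcripts were counted at 4.09 to 8.55 CPM, Cdkn2a at 79.2 to 175 CPM and Braf at 19.4 to 34.7 CPM. Which exons the deletion removes is not in the labels and no line with intact p53 was analysed, so these values do not check the genotype.

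The lines carried an epithelial profile, and the labels call them hepatocellular carcinoma (HCC). Transcripts of several proteins that hepatocytes secrete were low, although that of apolipoprotein B was not. Keratins of simple epithelia were abundant, with Krt8 and Krt18 at 1851 to 3182 CPM and Krt19 at 830.1 to 1347 CPM, and E-cadherin (Cdh1) stood at 371 to 756 CPM. Epcam was low, at 1.21 to 4.44 CPM. The hepatocyte regulator Hnf4a was present at 121 to 266 CPM and apolipoprotein B (Apob) at 627 to 1560.5 CPM, while albumin (Alb) stood at 0.132 to 15.8 CPM, transthyretin (Ttr) at 0.151 to 4.99 CPM and the fetal marker Afp at 4.09 to 13.5 CPM. The bile acid enzyme Cyp7a1 and the fibrinogen chain Fgg were at 0. Vimentin (Vim), an intermediate filament of mesenchymal cells, was also abundant, at 1635 to 4352 CPM.

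Most leukocyte markers stayed under 1 CPM in these libraries, while some leukocyte, stromal and endothelial markers were higher. Of 14 leukocyte markers, 11 stayed under 1 CPM in all 6 libraries, with Tyrobp, Adgre1 and Cd3e at 0 and Ptprc at 0.0535 to 0.641 CPM, and the summed level of the list ran from 6.92 to 8.22 CPM with DMSO and from 3.08 to 11.9 CPM with PLX4720. Among 12 fibroblast and stellate markers 6 stayed under 1 CPM, with Lum, Lrat and Thy1 at 0, and their sum was 4.03 to 30.3 CPM with DMSO and 2.37 to 35.2 CPM with PLX4720, mostly Pdgfra and Rgs5. Of 10 endothelial markers 5 stayed under 1 CPM, and the list summed to 1.90, 3.53 and 83.9 CPM with DMSO in T2, T3 and T1, and to 2.29, 3.77 and 44.5 CPM with PLX4720, where the T1 values were mostly Tek (0 to 69.6 CPM over the 6 libraries). In bulk RNA, fewer cells of a type and less RNA per cell cannot be told apart.

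PLX4720 changed 1362 of the 16555 genes tested in the primary lines, which is 8.23% (edgeR adjusted p under 0.05). Of these, 738 were higher (4.46% of genes tested) and 624 lower (3.77%), and 1342 went the same way in T1, T2 and T3. The test within lines favours such genes, and over all genes tested 27.3% were higher and 24.5% lower in all 3 lines. Most changes were modest: the median absolute log2 change of the called genes was 0.73, and 333 genes rose and 149 fell at least 2-fold. Changes of at least 4-fold were found for 59 genes that rose and 48 that fell. The lines start from different levels, and PLX4720 and DMSO libraries overlapped for most of the called genes. They did not overlap for 483 of the 1362 called genes, and for 1513 of the 16555 genes tested (9.14%). Across 11185 genes with a mean log2 CPM of at least 1, the changes per line correlated at Pearson's r of 0.74 between T1 and T2, 0.61 between T1 and T3 and 0.55 between T2 and T3, a description across genes that share libraries. T1 moved most, with 244 of these genes over 1 log2 unit higher and 117 lower, against 119 and 100 in T2 and 220 and 80 in T3. With only 3 lines, many calls depend on having all of them: 91, 210 and 340 genes passed without T1, T2 and T3, the last being the line whose PLX4720 library stands apart.

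Gene lists for pathways, cell functions and cell types were described by how many of their tested members were called in each direction and by their median change, beside the background of 4.46% higher and 3.77% lower and a median of 0.03 over all genes tested. The lists were chosen with earlier results of these data known, so a share above the background describes a list and does not test it.

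**Figure D1:**
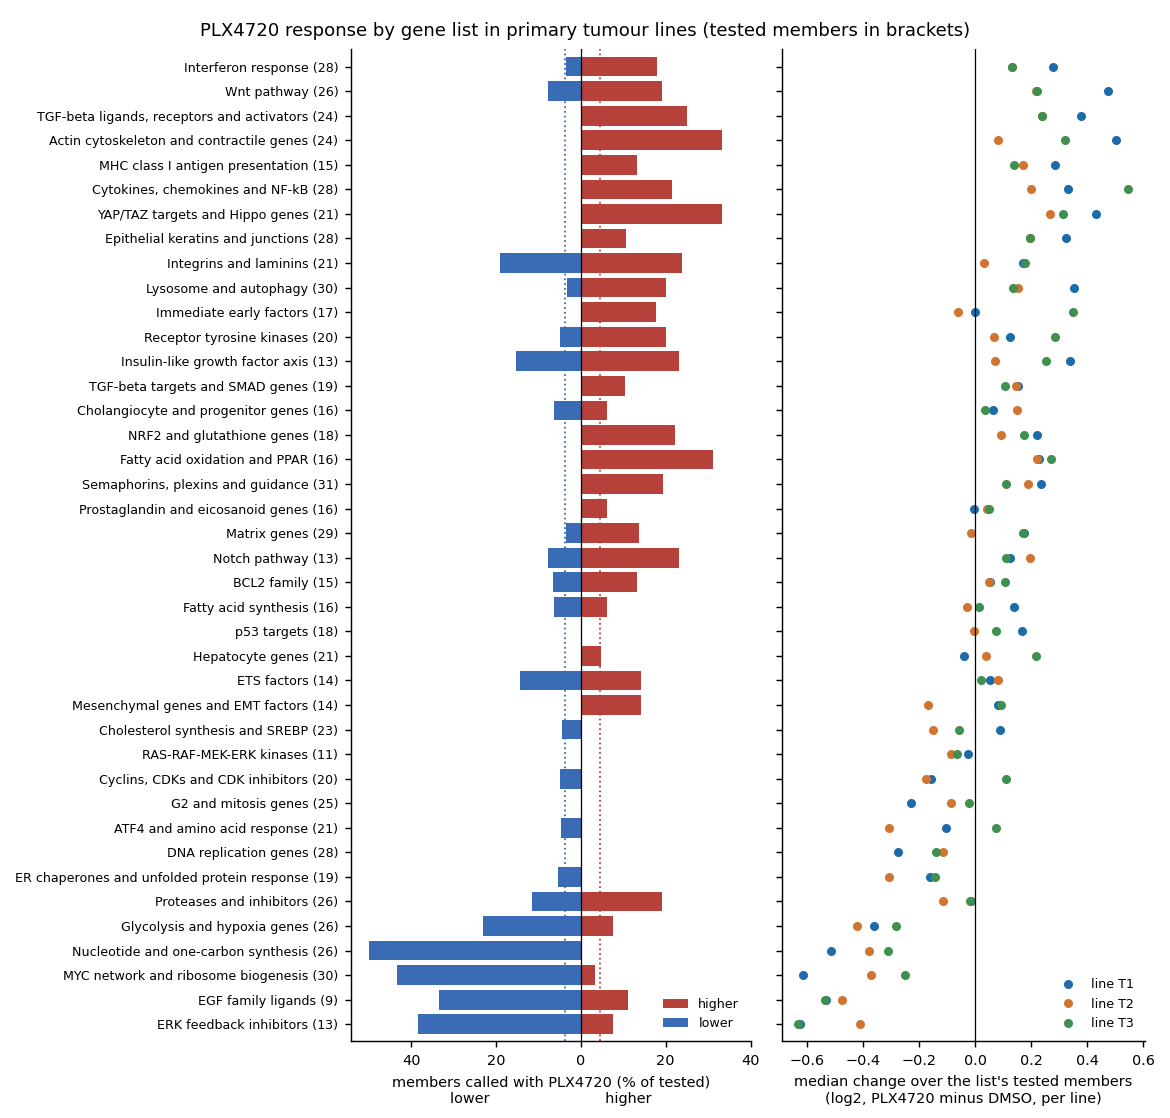
Left, the share of each list's tested members that were called higher (red) or lower (blue) with PLX4720, with the shares over all genes tested as dotted lines. Right, the median change over the list's members in each line, as log2(CPM + 1) differences. Rows are ordered by the median of the fitted changes: the 5 lowest are ERK feedback inhibitors, EGF family ligands, ribosome biogenesis, nucleotide synthesis and glycolysis and hypoxia genes, with medians below 0 in all 3 lines, and the 5 at the top have medians above 0 in all 3 lines.

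Etv4, Etv5 and part of the ERK feedback inhibitors fell. Of 13 ERK feedback inhibitors tested, 5 were lower and 1 higher, with a median log2 change of -0.58. In each of the 3 lines 9 members were lower and 3 higher, where 24.5% and 27.3% of all genes tested were lower or higher in each line. Etv4 (gene ENSMUSG00000017724, chromosome 11, 101769742 to 101785371, minus strand, GRCm38), an ETS factor that reports ERK activity, stood in T1, T2 and T3 at 99.7, 74.9 and 56.3 CPM with DMSO and 14.3, 16.1 and 16.3 CPM with PLX4720 (log2 change -2.27 ± 0.23, SE; edgeR adjusted p = 0.00318). The treated libraries were all below the untreated ones and lay close together. Its relative Etv5 was at 65.3, 35.9 and 56.2 CPM with DMSO and 16.0, 4.55 and 19.4 CPM with PLX4720 (log2 change -2.14 ± 0.32, SE; edgeR adjusted p = 0.01), lowest in T2. Dusp6, the cytoplasmic phosphatase of ERK, had 347, 273 and 285 CPM with DMSO and 147, 149.9 and 183 CPM with PLX4720 (log2 change -0.91 ± 0.20, SE; edgeR adjusted p = 0.032), a smaller fall without overlap. Spry4, a Sprouty protein, fell by 2.45 (edgeR adjusted p = 0.0494), mostly in T1, where it went from 84.9 to 4.68 CPM. Its change was -1.49 without T1, and it missed the threshold with DESeq2 size factors or a stricter filter (adjusted p = 0.0513 and 0.0548). On the log2 scale, Spred3, Spred1 and Dusp7, further inhibitors of the pathway, fell by 0.81, 0.65 and 0.48 (edgeR adjusted p = 0.0186, 0.019 and 0.0264). Spry2, Dusp5 and Dusp4 had log2 changes of -0.91, -1.17 and -0.58 and did not pass (adjusted p = 0.051, 0.0525 and 0.146). Dusp1, a nuclear phosphatase that acts mainly on stress kinases, moved the other way and went from 10.8, 26.9 and 28.3 to 43.5, 54.3 and 67.9 CPM (log2 change 1.42 ± 0.18, SE; edgeR adjusted p = 0.00539). None of 11 RAS, RAF, MEK and ERK kinase genes tested was called by edgeR (2 lower at an unadjusted p under 0.05; 0 by DESeq2), and Braf had a change of 0.11 ± 0.14 (adjusted p = 0.671).

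The EGF receptor ligands Btc, Areg and Tgfa fell too. Of 9 EGF family ligands tested 3 were lower and 1 higher, with a median of -0.49. Betacellulin (Btc), one such ligand, was at 69.3, 50.7 and 99.8 CPM with DMSO and 18.2, 8.47 and 21.1 CPM with PLX4720 (log2 change -2.24 ± 0.21, SE; edgeR adjusted p = 0.00253), with every treated library below every untreated one. Amphiregulin (Areg) fell in each line although the lines differed widely, from 18.4, 36.3 and 129.8 to 4.57, 5.31 and 34.9 CPM (log2 change -2.21 ± 0.36, SE; edgeR adjusted p = 0.0131). Tgfa fell by 0.80 (adjusted p = 0.0102), and Ereg and Hbegf had log2 changes of -1.43 and -0.49 that did not pass (edgeR adjusted p = 0.0676 and 0.198). Nrg1, which binds ERBB3 and ERBB4 rather than the EGF receptor, rose by 0.71 (adjusted p = 0.0215).

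Among 17 immediate early factors 3 were higher and 0 lower: the AP-1 subunits Fosl2, Jun and Jund rose by 1.09, 1.09 and 0.59 (edgeR adjusted p = 0.016, 0.0226 and 0.0187). Egr1 was higher in the 3 lines at low levels, from 3.93, 1.95 and 1.31 to 3.95, 5.80 and 13.8 CPM in T1, T2 and T3, and Fosl1 lower, with log2 changes of 1.62 and -0.78 that did not pass (adjusted p = 0.184 and 0.0631). Immediate early factors called lower numbered 1 with DESeq2, 1 without the filter on low counts, 2 with the primary libraries fitted alone, 1 without T3 and 2 without M1, and those called higher 0, 0 and 2 without T1, T2 and T3. Of 14 ETS factors 2 were lower, Etv4 and Etv5, and 2 higher, the epithelial members Ehf and Elf3 (1.38 and 0.63; adjusted p = 0.0131 and 0.0324). Of these 17 genes, Etv4, Dusp1 and Btc passed the threshold without any 1 of the 6 lines, and 14, 13 and 9 missed it without T1, T2 and T3 (edgeR adjusted p at a miss with any line left out 0.052 to 0.252), counting the genes called in the last 3 paragraphs. With a line left out, 0, 0 and 1 feedback inhibitors were lower without T1, T2 and T3.

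**Figure D2:**
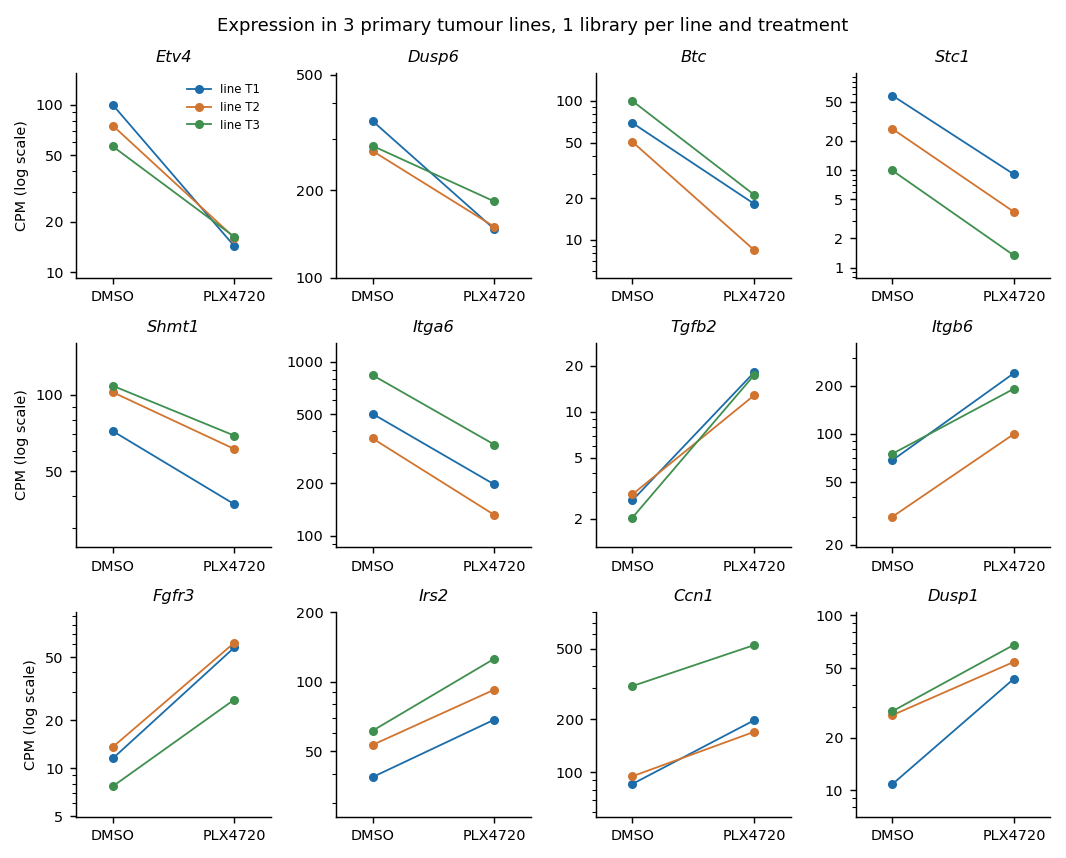
CPM on a log axis for 12 genes, with DMSO at the left and PLX4720 at the right and a line joining the 2 libraries of each cell line. Etv4, Dusp6, Btc, Stc1, Shmt1 and Itga6 are lower and Tgfb2, Itgb6, Fgfr3, Irs2, Ccn1 and Dusp1 higher with PLX4720 in all 3 lines.

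Genes of nucleotide supply and of ribosome assembly fell in part. Of 26 genes of nucleotide and one-carbon synthesis 13 were lower and 0 higher, and 24 were lower in each of the 3 lines, with a median log2 change of -0.40. Shmt1, which moves one-carbon units from serine to folate, stood at 72.0, 102 and 109 CPM with DMSO and 37.1, 61.2 and 69.1 CPM with PLX4720 (log2 change -0.78 ± 0.11, SE; edgeR adjusted p = 0.00764). Purine synthesis genes Gart and Atic fell by 0.53 and 0.48, the serine synthesis enzyme Phgdh by 0.56 and the folate enzyme Mthfd1 by 0.42 (edgeR adjusted p = 0.0158, 0.0222, 0.0233 and 0.0254). Upp1, which breaks down uridine, went from 7.80, 8.45 and 8.72 to 2.85, 2.42 and 2.49 CPM (log2 change -1.69 ± 0.24, SE; edgeR adjusted p = 0.00852), the largest fall of the list and alike in the 3 lines.

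Of 30 genes of the MYC network and ribosome biogenesis 13 were lower and 1 higher, with a median of -0.45 and 22 members lower in each line. Nop2, an rRNA methyltransferase, was at 262, 188 and 252 CPM with DMSO and 150.1, 138 and 177 CPM with PLX4720 (log2 change -0.59 ± 0.11, SE; edgeR adjusted p = 0.0181). Dkc1, the pseudouridine synthase of rRNA, Wdr12, a factor of the large subunit, Polr1b, a subunit of RNA polymerase I, and the nucleolar chaperone Npm1 fell by 0.65, 0.58, 0.55 and 0.51 on the log2 scale (adjusted p = 0.0189, 0.0162, 0.0189 and 0.0285). The member that rose was Mxd4 (0.83; adjusted p = 0.0437), a MAX partner that opposes MYC. Myc itself had a change of -0.24 ± 0.23 (adjusted p = 0.563), lower in T1 and T2 and higher in T3. Median changes of the list were -0.62, -0.37 and -0.25 in T1, T2 and T3, and those of the nucleotide list -0.52, -0.38 and -0.31. No member of either list passed without T1 or without T2, and 0 and 2 members were lower without T3, while 15 and 15 were lower with DESeq2.

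Few cell cycle genes passed the test. None of 28 DNA replication genes was called by edgeR, although 20 were lower in each line, 11 had an unadjusted p under 0.05 and their median was -0.17. DESeq2 called 2 of them lower, and 5 were lower with the primary libraries fitted alone. Of 25 genes of G2 and mitosis 0 were called (3 lower at an unadjusted p under 0.05; 1 by DESeq2), and the proliferation marker Mki67 had a change of -0.01 ± 0.17 (adjusted p = 0.978), higher in T3 and lower in T1 and T2. Among 20 cyclins, CDKs and CDK inhibitors, Ccne1, which drives entry into S phase, fell by 0.65 (adjusted p = 0.0248). Cyclin D1 (Ccnd1), a known ERK target, had 1198, 837 and 1168 CPM with DMSO and 1020.3, 594 and 1206 CPM with PLX4720 and did not pass (log2 change -0.23 ± 0.14, SE; edgeR adjusted p = 0.345).

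Glycolysis and hypoxia genes had 6 lower and 2 higher of 26 tested, with a median of -0.39. Stanniocalcin 1 (Stc1; gene ENSMUSG00000014813, chromosome 14, 69029289 to 69041401, plus strand, GRCm38), a secreted glycoprotein induced by hypoxia, showed the largest fall among genes with a mean log2 CPM of at least 1, at 57.9, 26.4 and 9.90 CPM with DMSO and 9.04, 3.73 and 1.34 CPM with PLX4720 (log2 change -2.79 ± 0.16, SE; edgeR adjusted p = 0.000601). The fall was 6.89-fold in the fit, and within each line the ratio was alike although starting levels differed. Hif1a, the hypoxia-inducible factor subunit, the glycolytic enzymes Ldha, Pgam1 and Aldoa, and the lactate exporter Slc16a3 fell by 0.51, 0.53, 0.47, 0.41 and 0.99 (edgeR adjusted p = 0.0187, 0.0413, 0.042, 0.0465 and 0.0424). Ndrg1, which is also induced by hypoxia, and Pfkfb3, which activates glycolysis, rose by 1.13 and 0.66 (adjusted p = 0.0131 and 0.0419). Of these 21 genes, Stc1 passed the threshold without any 1 of the 6 lines, and 20, 19 and 18 missed it without T1, T2 and T3 (edgeR adjusted p at a miss with any line left out 0.0507 to 0.321), counting those called here and in the last 3 paragraphs. Aldoa and Pgam1 also missed it with DESeq2 size factors (0.0569 and 0.0503), and the change of Slc16a3 was -0.62 without T3.

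Tgfb2, Tgfb3 and the chains of 2 integrins that release TGF-β from its latent form rose. Of 24 ligand, receptor and activator genes 6 were higher and 0 lower, with a median of 0.42, and 14 were higher in each line. Tgfb2 (gene ENSMUSG00000039239, chromosome 1, 186622792 to 186705989, minus strand, GRCm38), a ligand that is secreted in latent form, was at 2.65, 2.90 and 2.04 CPM with DMSO and 18.1, 12.8 and 17.4 CPM with PLX4720 (log2 change 2.66 ± 0.19, SE; edgeR adjusted p = 0.00081), a 6.33-fold rise. Starting levels were alike, and every treated library was above every untreated one. Tgfb3 rose from 38.2, 2.50 and 14.1 to 115, 4.28 and 44.3 CPM (log2 change 1.41 ± 0.19, SE; edgeR adjusted p = 0.00711), with T2 far below the other two lines under either treatment. Tgfb1 was lower in T1 and T2 and higher in T3, at 15.8, 16.1 and 25.4 CPM with DMSO and 9.70, 13.0 and 30.5 CPM with PLX4720, and did not pass (log2 change -0.24 ± 0.28, SE; edgeR adjusted p = 0.632). Itgb6, the chain of the epithelial integrin αvβ6 that activates latent TGF-β1 and TGF-β3, had 68.1, 30.0 and 74.8 CPM with DMSO and 241, 99.7 and 192 CPM with PLX4720 (log2 change 1.64 ± 0.13, SE; edgeR adjusted p = 0.000966). Itgb8, the chain of a second activating integrin, was at or below 1.20 CPM, with 15 fragments over the DMSO libraries (2.14; adjusted p = 0.0179). The receptor Tgfbr2 and the latent ligand binding protein Ltbp4 rose by 0.55 and 0.79 (adjusted p = 0.0162 and 0.0265).

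Of 19 target and SMAD genes of the pathway 2 were higher and 0 lower, with a median of 0.21. With the primary libraries fitted alone 6 of them were higher and 3 lower, and 8 and 0 of the ligand, receptor and activator genes. Whether both lists differ in response was not tested. Id3, a target of BMP and TGF-β signals, rose by 0.47 and Ski, a co-repressor of SMADs, by 0.37 (edgeR adjusted p = 0.0215 and 0.0399). The inhibitory Smad7 was higher in each line (0.41) and just missed the threshold (adjusted p = 0.0505). Of these 8 genes, Tgfb2 and Itgb6 passed the threshold without any 1 of the 6 lines, and 6, 4 and 4 missed it without T1, T2 and T3 (edgeR adjusted p at a miss with any line left out 0.0544 to 0.213), counting both paragraphs on this pathway.

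Several receptor tyrosine kinases rose. Of 20 tested 4 were higher and 1 lower, with a median of 0.21. Fgfr3 (gene ENSMUSG00000054252, chromosome 5, 33721674 to 33737068, plus strand, GRCm38), a receptor of fibroblast growth factors, was at 11.5, 13.6 and 7.68 CPM with DMSO and 57.5, 61.6 and 27.0 CPM with PLX4720 (log2 change 2.11 ± 0.16, SE; edgeR adjusted p = 0.000966), with no overlap and a 4.31-fold rise. Fgfr2, another receptor of the family, rose from 7.44, 0.0790 and 11.4 to 25.7, 0.354 and 26.6 CPM (log2 change 1.54 ± 0.32, SE; edgeR adjusted p = 0.0254) and was nearly absent in T2. The collagen receptor Ddr1 rose by 0.64, and Pdgfra, which T2 and T3 hold under 1 CPM, by 1.20 (adjusted p = 0.0145 and 0.0258). Without T1 the change of Pdgfra was 0.77. Epha2, an ephrin receptor that ERK is known to raise, fell by 0.49 (adjusted p = 0.0143). Egfr, Erbb2, Erbb3, Met and Axl had log2 changes of 0.29, 0.22, -0.22, 0.01 and -0.02, and none passed (adjusted p = 0.186 to 0.973).

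In the insulin-like growth factor axis 3 of 13 genes were higher and 2 lower. Irs2, an adaptor that links insulin and IGF receptors to PI3 kinase, was at 38.7, 53.3 and 61.4 CPM with DMSO and 68.6, 92.5 and 126 CPM with PLX4720 (log2 change 0.89 ± 0.09, SE; edgeR adjusted p = 0.00299), with no overlap. Its relative Irs1 rose by 0.65 and the ligand Igf1 by 0.93, from 10.1, 0.263 and 6.48 to 23.4, 0.300 and 11.5 CPM (adjusted p = 0.0342 and 0.0415). The secreted binding proteins Igfbp3 and Igfbp4 fell, Igfbp4 from 2274, 2181 and 1297 to 733, 775 and 719 CPM (log2 change -1.33 ± 0.33, SE; edgeR adjusted p = 0.0452) and Igfbp3 by 1.87 (adjusted p = 0.0364). Igf1 and Igfbp3 did not pass with DESeq2 (adjusted p = 0.0832 and 0.105), nor Igfbp4 with a stricter filter (0.0521). Of these 10 genes, Fgfr3 and Irs2 passed the threshold without any 1 of the 6 lines, and 8, 8 and 8 missed it without T1, T2 and T3 (edgeR adjusted p at a miss with any line left out 0.0521 to 0.446), counting the receptor kinases as well.

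Wnt, Notch and axon guidance genes had more members higher than lower. Of 26 Wnt pathway genes 5 were higher and 2 lower, with a median of 0.45. Wnt4 rose from 35.6, 9.92 and 0.731 to 79.6, 38.8 and 5.37 CPM (log2 change 1.86 ± 0.25, SE; edgeR adjusted p = 0.00711), with starting levels that differed between lines. The ligands Wnt6 and Wnt11, the receptor Fzd2 and Notum, an enzyme that inactivates Wnt ligands, rose by 1.74, 1.26, 0.74 and 1.06 (edgeR adjusted p = 0.00427, 0.0223, 0.0266 and 0.0083). Wnt5a, a non-canonical ligand, and the receptor Fzd5 fell by 0.51 and 0.68 (adjusted p = 0.0355 and 0.0499). Among 13 Notch pathway genes, the target Hey1, the regulator Dtx4 and the receptor Notch1 rose by 1.83, 0.98 and 0.81, and Rbpj, the DNA-binding partner of Notch, fell by 0.51 (adjusted p = 0.00711, 0.00427, 0.041 and 0.032). Of 31 guidance genes 6 were higher and 0 lower. Plexins, the receptors of semaphorins, made up 4 of them: Plxna2 went from 43.2, 22.3 and 45.9 to 74.2, 42.5 and 89.1 CPM (log2 change 0.89 ± 0.10, SE; edgeR adjusted p = 0.00367), and Plxnb1, Plxnb2 and Plxnb3 rose by 0.80, 0.39 and 2.56. Netrin 4 (Ntn4) and Sema3d rose by 1.24 and 1.35 (adjusted p of these 5 genes 0.00533 to 0.0344). Of these 17 genes, Dtx4 and Plxna2 passed the threshold without any 1 of the 6 lines, and 14, 11 and 6 missed it without T1, T2 and T3 (edgeR adjusted p at a miss with any line left out 0.051 to 0.284). Fzd5 also missed the threshold with DESeq2 size factors or a stricter filter (0.0532 and 0.0534).

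Part of the targets of the co-activators YAP and TAZ and of the contractile genes rose. YAP and TAZ bind DNA through TEAD factors, and SRF with its MRTF partners drives genes of the actin cytoskeleton. Of 21 YAP/TAZ and Hippo genes 7 were higher and 0 lower, with a median of 0.33, and of 24 contractile and cytoskeletal genes 8 were higher and 0 lower, with a median of 0.39. Promoters of 3 members of the first list and 2 of the second are shown because they hold the site by which these factors are named: the TEAD core CATTCC for Ccn1, Amotl2 and Vgll3, and the CArG box, the SRF site, for Acta1 and Myl9. Letters are those of RefSeq on GRCm38.p6, 250 bases before to 50 after the start site, 5′ to 3′ on the strand of the gene, with the site in capitals. The windows lie at chr3:145649936-145650235, minus strand (Ccn1), chr9:102717554-102717853, plus strand (Amotl2), chr16:65814939-65815238, plus strand (Vgll3), chr8:123894726-123895025, minus strand (Acta1) and chr2:156775214-156775513, plus strand (Myl9).
Ccn1: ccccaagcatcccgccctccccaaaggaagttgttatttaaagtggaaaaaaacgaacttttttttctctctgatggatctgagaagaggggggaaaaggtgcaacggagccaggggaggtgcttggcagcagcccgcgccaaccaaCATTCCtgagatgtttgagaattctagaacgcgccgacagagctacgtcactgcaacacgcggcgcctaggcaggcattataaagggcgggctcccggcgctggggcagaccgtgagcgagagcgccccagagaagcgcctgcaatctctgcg
Amotl2: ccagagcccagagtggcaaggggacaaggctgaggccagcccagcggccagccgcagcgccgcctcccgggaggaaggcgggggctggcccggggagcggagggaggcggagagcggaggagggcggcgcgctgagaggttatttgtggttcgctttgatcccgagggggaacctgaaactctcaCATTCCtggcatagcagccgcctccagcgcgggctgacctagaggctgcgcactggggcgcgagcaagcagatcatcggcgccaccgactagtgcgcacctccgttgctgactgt
Vgll3: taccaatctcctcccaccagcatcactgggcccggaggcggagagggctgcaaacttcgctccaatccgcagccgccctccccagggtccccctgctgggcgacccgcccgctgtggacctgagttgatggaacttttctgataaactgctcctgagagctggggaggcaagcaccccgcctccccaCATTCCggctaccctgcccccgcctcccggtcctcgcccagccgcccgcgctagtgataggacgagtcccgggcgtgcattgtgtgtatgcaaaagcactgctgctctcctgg
Acta1: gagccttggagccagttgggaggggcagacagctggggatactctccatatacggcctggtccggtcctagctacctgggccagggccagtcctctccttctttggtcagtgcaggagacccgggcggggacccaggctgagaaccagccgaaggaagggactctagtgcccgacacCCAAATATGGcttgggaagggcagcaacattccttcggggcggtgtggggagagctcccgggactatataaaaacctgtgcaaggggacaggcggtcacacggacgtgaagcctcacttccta
Myl9: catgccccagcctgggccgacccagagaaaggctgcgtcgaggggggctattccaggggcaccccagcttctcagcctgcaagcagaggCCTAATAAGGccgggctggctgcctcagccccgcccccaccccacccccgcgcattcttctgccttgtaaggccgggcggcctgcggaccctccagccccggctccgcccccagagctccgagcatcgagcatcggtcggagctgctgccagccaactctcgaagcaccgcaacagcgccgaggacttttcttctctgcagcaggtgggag
The TEAD core starts 103, 65 and 63 bases before the start site in Ccn1, Amotl2 and Vgll3, and the CArG box 73 and 161 bases before it in Acta1 and Myl9. Acta1 also holds a TEAD core, 46 bases before the start, which does not overlap its CArG box.

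CATTCC, searched on both strands, stands in 14.7% of the 32851 promoters of the table, and 16.6% of the 27025 genes with a promoter hold it. Of the 21 YAP/TAZ and Hippo genes 15 had a promoter in the table and 12 of them held it, and all 5 of the called members with a promoter did (Ccn1, Amotl2, Vgll3, Ptpn14 and Ajuba). The list holds targets of YAP and TAZ together with genes of the Hippo pathway itself, such as Yap1, Wwtr1 and Lats2. This share describes the list only. Over all called genes with a promoter, the core was found in 21.5% of 544 genes that rose and 12.2% of 482 that fell, against 14.8% of 11213 genes tested. Some genes have several promoters, and counted by promoter the shares were 16.4%, 11.1% and 12.6%. The CArG box, a motif whose class reads the same on both strands, stands in 1.63% of promoters and is held by 1.81% of genes with a promoter. Among contractile genes 6 of 24 with a promoter held it, 2 of them called (Acta1 and Myl9). The ETS site CCGGAAGT, searched on both strands, was held by 11.6% of the genes that fell, 2.02% of those that rose and 8.66% of those tested. For the AP-1 site TGANTCA these shares were 10.2%, 7.9% and 6.92%. They were 14.7%, 9.74% and 11.4% for the E-box CACGTG, and 3.53%, 2.02% and 3.46% for the site TGACGTCA (CRE). These motifs were picked after the changes were known, they overlap no other searched motif in the promoters printed, and a match does not show binding.

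Among the YAP/TAZ genes Ccn1, a matricellular protein, rose in each line, from 86.1, 95.1 and 307 to 197, 169 and 522 CPM (log2 change 0.93 ± 0.11, SE; edgeR adjusted p = 0.005). The junction protein Amotl2, a feedback inhibitor of YAP, went from 129.6, 141 and 374 to 274, 234 and 548 CPM (log2 change 0.79 ± 0.12, SE; edgeR adjusted p = 0.00932). T3 stood above the other two lines for both genes, so that groups overlap although each line rose. The phosphatase Ptpn14, the TEAD cofactor Vgll3, the kinase Nuak2, the LIM protein Ajuba and the exchange factor Arhgef17 rose by 0.68, 0.85, 1.04, 0.59 and 0.40 (edgeR adjusted p = 0.0131, 0.0232, 0.03, 0.0475 and 0.0408). Ccn2 and Ankrd1, widely used YAP targets, were higher in 2 of 3 lines and did not pass (0.26 and 0.27; adjusted p = 0.658 and 0.538). Skeletal actin (Acta1) rose most among contractile genes, from 0.808, 0.0526 and 0.252 to 12.6, 0.517 and 2.46 CPM (log2 change 3.66 ± 0.32, SE; edgeR adjusted p = 0.00186), with 41 fragments over the DMSO libraries, 30 of them in T1. Caldesmon (Cald1), which binds actin and myosin, had 189, 299 and 348 CPM with DMSO and 377, 394 and 691 CPM with PLX4720 (log2 change 0.80 ± 0.13, SE; edgeR adjusted p = 0.0141). Calponin (Cnn1), the light chain Myl9, the SRF co-activator Mrtfb, the actin crosslinker Actn1 and the non-muscle myosin Myh9 rose by 1.79, 2.51, 0.75, 0.45 and 0.38 (adjusted p = 0.0189, 0.0389, 0.0242, 0.0436 and 0.0413), where Cnn1 and Myl9 had 54 and 50 fragments over the DMSO libraries. Actg2, the eighth contractile gene called, had a change of 3.43 (adjusted p = 0.0347), with 9 fragments over the DMSO libraries and 0 in T2 under either treatment. Of these 15 genes, Ccn1 and Acta1 passed the threshold without any 1 of the 6 lines, and 13, 12 and 12 missed it without T1, T2 and T3 (edgeR adjusted p at a miss with any line left out 0.0559 to 0.434). The YAP/TAZ list had 1, 1 and 2 members higher without T1, T2 and T3, and the contractile list 1, 2 and 1.

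Adhesion genes moved in both directions. Of 21 integrin and laminin genes 5 were higher and 4 lower. Itga6, the laminin receptor chain of epithelial cells, was at 503, 363 and 839 CPM with DMSO and 197, 132 and 335 CPM with PLX4720 (log2 change -1.38 ± 0.21, SE; edgeR adjusted p = 0.00951), with no overlap. The collagen receptor chain Itga2, the laminin receptor chain Itga3 and the laminin chain Lamb1 fell by 0.71, 0.67 and 1.26 (edgeR adjusted p = 0.0104, 0.0314 and 0.0135). Besides Itgb6 and Itgb8, the laminin chains Lamb2 and Lamb3 rose, Lamb2 from 179, 189.6 and 215 to 352, 280.3 and 346 CPM (log2 change 0.74 ± 0.10, SE; edgeR adjusted p = 0.0057) and Lamb3 by 1.26 (adjusted p = 0.024). The laminin chain Lama4, of low level in T2 and T3, rose by 1.1 (adjusted p = 0.031).

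Of 29 matrix genes 4 were higher and 1 lower. Thrombospondin 1 (Thbs1), an activator of latent TGF-β, went from 455, 204 and 426 to 1132, 460.1 and 678 CPM (log2 change 1.05 ± 0.13, SE; edgeR adjusted p = 0.00481). The collagen chains Col4a5, Col12a1 and Col6a2 rose by 0.75, 1.41 and 1.04, mostly from low levels, and Col8a1 fell by 1.08 (adjusted p = 0.0145, 0.0166, 0.0171 and 0.0366). Col8a1 hardly changed in T1, had a change of -0.47 without T2, and did not pass with the primary libraries fitted alone (adjusted p = 0.0632). Of 26 proteases and inhibitors 5 were higher and 3 lower. The membrane proteases Mmp15 and Mmp14, the stromelysin Mmp11, the aggrecanase-like Adamts1 and the inhibitor Timp3 rose by 2.33, 0.53, 1.06, 1.21 and 1.16 (adjusted p = 0.0035, 0.012, 0.00408, 0.0036 and 0.0422). Adam9, a membrane sheddase, cathepsin L (Ctsl) and Serpinb2, an inhibitor of plasminogen activators, fell by 0.63, 0.77 and 2.67 (adjusted p = 0.00859, 0.0107 and 0.0156). Of these 20 genes, Mmp15, Adamts1 and Mmp11 passed the threshold without any 1 of the 6 lines, and 16, 11 and 9 missed it without T1, T2 and T3 (edgeR adjusted p at a miss with any line left out 0.0501 to 0.217), counting those called in this paragraph and in the account of adhesion genes.

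Of 28 keratin and junction genes tested 3 were higher and 0 lower, with a median of 0.29, and 17 were higher in each of the 3 lines and 5 lower. DESeq2 called 5 higher, and 9 were higher and 1 lower with the primary libraries fitted alone. The tight junction genes Cgn, Tjp3 and Cldn1 rose by 0.88, 1.55 and 1.5 (edgeR adjusted p = 0.00855, 0.021 and 0.0499). Cdh1 was higher in each line, from 503, 454 and 371 to 756, 537 and 748 CPM, but did not pass (log2 change 0.61 ± 0.32, SE; edgeR adjusted p = 0.27). Among 14 mesenchymal genes and EMT factors the secreted proteins Sparc and Fn1 rose by 0.85 and 0.64 (adjusted p = 0.011 and 0.0256), while Vim was lower in each line and the EMT factors Snai1 and Zeb1 had changes of 0.14 and -0.10, none of which passed (adjusted p = 0.0745, 0.78 and 0.603 for Vim, Snai1 and Zeb1). Of 21 hepatocyte genes tested Ttr rose (2.26; adjusted p = 0.0172), at no more than 4.99 CPM. Of 16 cholangiocyte and progenitor genes tested 1 was higher and 1 lower, with a median of 0.17, and 6 were higher in each of the 3 lines and 3 lower. The member called lower, osteopontin (Spp1), went from 1367, 4389 and 2472 to 436, 2060.3 and 1138 CPM (log2 change -1.29 ± 0.25, SE; edgeR adjusted p = 0.022). Of these 7 genes, none passed the threshold in all 6 fits that leave out 1 line, and 7, 6 and 5 missed it without T1, T2 and T3 (edgeR adjusted p at a miss with any line left out 0.055 to 0.253). Cldn1 also missed it with upper-quartile factors or a stricter filter (0.0511 and 0.0529).

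Some immune-related genes rose. Of 28 interferon response genes 5 were higher and 1 lower, with a median of 0.46 and 12 higher in each line. In all primary libraries 11 of the 28 stayed under 1 CPM. On the log2(CPM + 1) scale the median changes were 0.28, 0.13 and 0.13 in T1, T2 and T3. Ddx58, an RNA sensor, was at 17.5, 14.3 and 14.0 CPM with DMSO and 33.6, 25.3 and 19.3 CPM with PLX4720 (log2 change 0.75 ± 0.12, SE; edgeR adjusted p = 0.0143), with no overlap. The ADP-ribosyltransferases Parp14 and Parp9, the factor Stat2 and the sensor Ifih1 rose by 0.76, 0.50, 0.62 and 0.45, and Oasl1 fell by 0.64 (edgeR adjusted p = 0.00577, 0.035, 0.0411, 0.0494 and 0.0338). Ifih1 did not pass without the filter on low counts or with the primary libraries fitted alone (0.0705 and 0.0525). Of 15 antigen presentation genes Tapbp, which loads peptide onto class I molecules, went from 57.6, 71.8 and 42.2 to 127, 126 and 80.0 CPM (log2 change 0.96 ± 0.13, SE; edgeR adjusted p = 0.00607), and the class Ib gene H2-T23 rose by 0.64 (adjusted p = 0.0464). Among 28 cytokine, chemokine and NF-κB genes 6 were higher and 0 lower, with a median of 0.38. These were the adhesion molecules Vcam1 and Icam1 (1.27 and 1.59), the cytokines Il18 and Csf1 (2.05 and 0.99), the chemokine Cxcl16 (0.66) and the NF-κB subunit Relb (0.63), with adjusted p of 0.00984 to 0.0468. Of these 14 genes, none passed the threshold in all 6 fits that leave out 1 line, and 13, 11 and 10 missed it without T1, T2 and T3 (edgeR adjusted p at a miss with any line left out 0.0526 to 0.267).

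Of 14 leukocyte markers 5 had enough fragments to be tested, of which 1 was higher and 1 lower, with a median of 0.13. Cd53, a tetraspanin of leukocytes, went from 5.54, 1.37 and 2.75 to 0.183, 0.0545 and 0.214 CPM (log2 change -4.36 ± 0.79, SE; edgeR adjusted p = 0.0172), from 360 fragments to 17 over the 3 libraries. Outside that list, some of the largest falls were of genes also known from immune cells, a group put together after the values were seen. The mannose receptor Mrc1 was at 8.41, 33.1 and 39.7 CPM with DMSO and 0.706, 5.58 and 8.82 CPM with PLX4720 (log2 change -2.66 ± 0.29, SE; edgeR adjusted p = 0.0036). The mast cell protease Mcpt8 and the paired receptors Pilrb1 and Pilra fell by 2.52, 2.26 and 2.04 (edgeR adjusted p = 0.00533, 0.0155 and 0.0127). Of the list of leukocyte markers, Tyrobp, Adgre1, Cd3e and Ptprc were at or near 0 under DMSO, while Cd53 and Csf1r reached 5.54 and 3.11 CPM. Csf1r, the receptor of Csf1 and the marker called higher, went from 0.557, 3.11 and 1.39 to 0.758, 8.72 and 3.64 CPM (log2 change 1.22 ± 0.26, SE; edgeR adjusted p = 0.0264). Of these 6 genes, Mrc1 and Mcpt8 passed the threshold without any 1 of the 6 lines, and 4, 4 and 2 missed it without T1, T2 and T3 (edgeR adjusted p at a miss with any line left out 0.0525 to 0.182).

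Part of the genes of fat use rose. Of 16 genes of fatty acid oxidation and PPAR signalling 5 were higher and 0 lower, with a median of 0.17. Pdk4, which holds back pyruvate oxidation, rose from 0.836, 2.61 and 5.49 to 2.01, 7.25 and 12.1 CPM (log2 change 1.29 ± 0.16, SE; edgeR adjusted p = 0.00526). The co-activator Ppargc1a, the peroxisomal enzyme Ehhadh and the carnitine transferase Cpt1a rose by 0.86, 1.12 and 0.52 (edgeR adjusted p = 0.0167, 0.0187 and 0.0232). Ehhadh did not pass with DESeq2 (0.0968). Among fatty acid synthesis genes Elovl6 fell by 0.40 and Me1 rose by 0.47 (adjusted p = 0.0233 and 0.0256).

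Lysosome and defence genes rose in part. Of 30 lysosome and autophagy genes 6 were higher and 1 lower, with a median of 0.23: the proton pump subunit Atp6v0d1, the autophagy kinase Ulk1, progranulin (Grn) and the membrane protein Lamp2 rose by 0.51, 0.70, 0.51 and 0.38 (edgeR adjusted p = 0.0131, 0.0223, 0.0355 and 0.0463), and Ctsl fell. Of 18 NRF2 and glutathione genes 4 were higher, Me1 and the glutathione genes Gclc, Gsta4 and Gstm1 (0.46, 0.61 and 0.71; adjusted p = 0.0246, 0.0366 and 0.0419), the last with a change of 0.44 without T3. Cth, which makes cysteine, fell from 24.5, 12.9 and 10.2 to 8.36, 5.07 and 5.00 CPM (log2 change -1.32 ± 0.13, SE; edgeR adjusted p = 0.00299) as the only call among 21 ATF4 targets, and the chaperone-like Creld2 fell by 0.56 (adjusted p = 0.0137).

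Of 15 BCL2 family genes the pro-apoptotic BH3-only genes Bmf and Pmaip1 rose and the survival gene Bcl2 fell. Bmf was at 1.14, 29.6 and 8.82 CPM with DMSO and 7.89, 119 and 23.6 CPM with PLX4720 (log2 change 1.98 ± 0.34, SE; edgeR adjusted p = 0.0156), highest in T2. Pmaip1 rose by 0.85 and Bcl2 fell by 0.52 (edgeR adjusted p = 0.0258 and 0.0338). None of 18 p53 targets was called by edgeR (5 higher and 1 lower at an unadjusted p under 0.05; 3 by DESeq2), with Cdkn1a at 0.29 ± 0.39 and Mdm2 at -0.14 ± 0.09 in cells labelled as p53 knockout. Hpgd, which breaks down prostaglandins, rose from 0.474, 1.42 and 0.302 to 3.48, 16.6 and 1.98 CPM (log2 change 3.13 ± 0.27, SE; edgeR adjusted p = 0.0036). Of these 19 genes, Pdk4, Cth and Hpgd passed the threshold without any 1 of the 6 lines, and 16, 15 and 14 missed it without T1, T2 and T3 (edgeR adjusted p at a miss with any line left out 0.0508 to 0.305), counting the last 3 paragraphs.

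Among genes with a mean log2 CPM of at least 1 that moved the same way in T1, T2 and T3, Sptssb, a subunit of the enzyme that starts sphingolipid synthesis, rose most, from 10.5, 0.0790 and 1.23 to 56.1, 0.654 and 9.68 CPM (log2 change 2.68 ± 0.21, SE; edgeR adjusted p = 0.00325), and was nearly absent in T2 under DMSO. The basal keratin Krt14 went from 0.167, 6.03 and 3.45 to 1.15, 41.6 and 11.0 CPM (log2 change 2.32 ± 0.30, SE; edgeR adjusted p = 0.0083). The exchange factor Arhgef26, the aldo-keto reductase Akr1c14, the calcium pump Atp2b4, the peptidase Mme, the ectoenzyme Enpp3, the adaptor Afap1l2, the epithelial factor Tfcp2l1 and the matricellular Ccn4 rose by 2.37, 2.17, 2.09, 2.08, 2.07, 2.05, 1.97 and 1.97 (edgeR adjusted p = 0.00113 to 0.0256). S100g, a calcium-binding protein, rose by 2.07, or 1.32 without T1, and missed the threshold with a stricter filter (edgeR adjusted p = 0.0503, against 0.0486 otherwise). Other called genes named above moved by as much, among them Acta1, Hpgd, Plxnb3 and Il18, which rose, and Cd53 and Serpinb2, which fell. These genes missed the mean level or the shared direction required here. Among the largest falls outside the groups above, Calcrl, the receptor chain for adrenomedullin, went from 81.0, 2.34 and 22.6 to 13.5, 1.12 and 3.24 CPM (log2 change -2.33 ± 0.28, SE; edgeR adjusted p = 0.00458). The hyaluronan synthase Has2, Krt76, cardiac troponin Tnnt2 and Disp2 fell by 2.20, 2.03, 1.99 and 1.94 (adjusted p = 0.0192, 0.0115, 0.00569 and 0.0294), and the change of Has2 was -1.22 without T3. Of these 16 genes, Sptssb, Atp2b4, Mme, Enpp3, Tfcp2l1 and Tnnt2 passed the threshold without any 1 of the 6 lines, and 10, 6 and 3 missed it without T1, T2 and T3 (edgeR adjusted p at a miss with any line left out 0.0508 to 0.283).

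**Figure D3:**
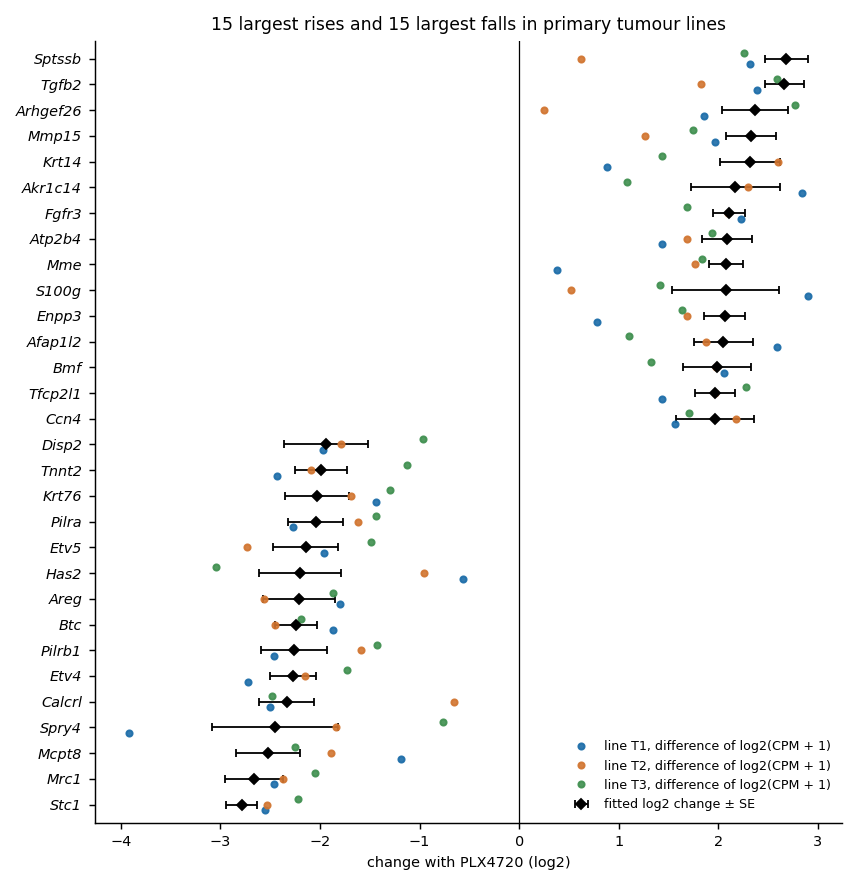
Log2 change with PLX4720 of the 15 largest rises and 15 largest falls among called genes with a mean log2 CPM of at least 1, with the fitted value and its SE as a black diamond and each line as a coloured point. A gene had to move the same way in all 3 lines to be shown. The spread between lines is widest for Spry4, where T1 fell most.

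The response of the primary lines was compared with that of the metastasis lines in the same fit, to show where it differed. In the metastasis lines 3378 genes passed (20.4%), and 660 genes passed in both sites in the same direction, 48.5% of the primary calls and 19.5% of the metastasis calls, while 29 passed in opposite directions. The test of the difference between sites called 487 genes (2.94%), of which 138 were also called in the primary lines. For 65 of these 138 the change was the larger one in size in the primary lines. Epithelial keratins and Cdh1 were near 0 in the metastasis lines, where Krt8 reached at most 4.76 CPM, so site and epithelial state cannot be told apart.

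The rise of Fgfr3 differed between sites: its change in metastasis lines, where it stood at no more than 0.407 CPM, was -0.21, a difference of 2.31 ± 0.38 (SE; edgeR adjusted p = 0.0181). Adamts7, Slc22a4 and Pmaip1 rose in primary lines (0.89, 0.88 and 0.85) and fell in metastasis lines (-1.51, -1.29 and -1.38), with differences at adjusted p of 0.00389 to 0.0103. In the other direction Cdh17, an intestinal and liver cadherin, went from 262, 315 and 156 to 101, 133 and 39.9 CPM in T1, T2 and T3 (log2 change -1.53 ± 0.17, SE; edgeR adjusted p = 0.00366), with a change of 1.34 in metastasis lines at no more than 3.72 CPM (difference -2.86 ± 0.36, adjusted p = 0.00761). The water channel Aqp5 fell by 1.24 (0.80 without T1) and Has2 by 2.20 in primary lines. Their changes in metastasis lines were above 0, at 1.37 and 0.46 (edgeR adjusted p of the difference 0.0161 and 0.0341). Genes that moved the same way at both sites but less in primary lines were Upp1, Sh2d5 and Phlda2, with falls of 1.69, 1.78 and 1.34 against -3.92, -4.48 and -3.84 (adjusted p of the difference 0.0149, 0.00248 and 0.0492), and Cyp1b1, Edn1 and Aldh1a7, with rises of 1.67, 1.52 and 1.62 against 4.43, 4.36 and 4.13 (adjusted p of the difference 0.00448, 0.0297 and 0.011). Igf1 and Icam1 rose less as well (differences -4.91 and -2.87), though with at most 0.209 CPM in any metastasis DMSO library. Rflna, a filamin regulator, rose by 1.85 in primary lines, with a difference of 2.22 ± 0.45 (adjusted p = 0.0377). Of the 10 genes among these not counted in an earlier paragraph (Adamts7, Slc22a4, Cdh17, Aqp5, Sh2d5, Phlda2, Cyp1b1, Edn1, Aldh1a7 and Rflna), Cdh17, Rflna, Cyp1b1 and Sh2d5 passed in the primary lines without any 1 line, and 5, 5 and 4 missed the threshold without T1, T2 and T3 (edgeR adjusted p 0.0513 to 0.228).

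**Figure D4:**
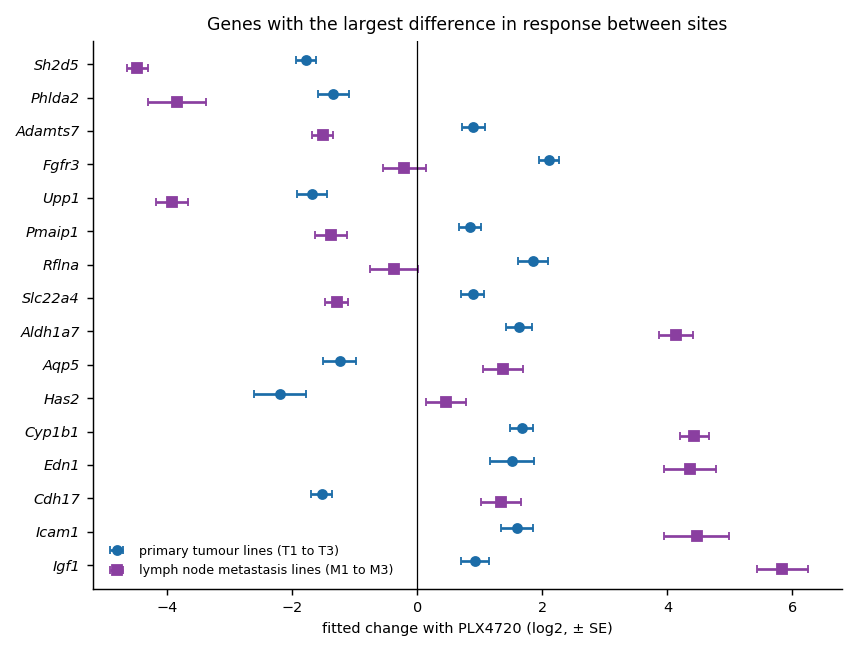
Fitted log2 change with PLX4720 and its SE in primary tumour lines (circles) and lymph node metastasis lines (squares) for the 16 genes with the largest difference between sites among genes called in the primary lines and in the difference. Fgfr3 and Rflna are above 0 in the primary lines and near 0 in metastasis lines, and Cdh17 and Aqp5 lie on opposite sides of 0.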

How the data were processed

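Per the labels' protocols, RNA was extracted from cultured cells and stranded total RNA libraries were prepared with ribosomal RNA depleted. The deposited tables hold raw fragment counts per gene, which per the file headers the authors produced with featureCounts 1.5.2 on exons of Ensembl 84 (GRCm38), counting pairs whose ends both mapped. The command in the headers sets no strand option, so genes that overlap on opposite strands share fragments, as near-identical copies may. As for the aligner, it is not given in the sources used. Of 47729 genes, 47224 were matched to a symbol. 

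Counts were fitted with edgeR 4.0.16 in R 4.3.3: filterByExpr, TMM scaling and the quasi-likelihood test on all 12 libraries, with a block per cell line and 1 treatment term per site (4 residual degrees of freedom, 16555 genes). P-values were adjusted by Benjamini-Hochberg over all genes tested, with a threshold of 0.05. The site difference is the contrast of both treatment terms. SEs are the absolute log2 change over the root of F, and are approximate for genes with few fragments. The block follows the cell line in the labels: deviations from group means correlated at 0.913 to 0.923 between the libraries of a line. No 2 libraries of a group were duplicates within counting noise (chi-square per degree of freedom at least 150.5). CPM use TMM-scaled library sizes, and changes per line use log2(CPM + 1).

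The cell lines and the 43 gene lists (890 genes, 826 tested) were chosen with earlier results of these data known. Named genes are Tgfb1, Tgfb2, Tgfb3, Braf, Trp53 and Cdkn2a, the 15 largest called rises and falls and the 8 largest site differences each way with a given name and a mean log2 CPM of at least 1 (rises and falls in the same direction in all 3 lines), up to 4 members of a list with the smallest p, and the 8 genes with a mean log2 CPM of at least 4 whose change varies most between lines. Other members of the lists that are named were picked after their values were seen. Some genes of the lists are not reported here. Alternatives were DESeq2 1.42.0, other size factors, other filters, fits without mitochondrial genes, without the block or with primary libraries alone, and fits without each line. The fit was tested on simulated counts for the comparison in primary lines (16298 genes, 200 of them changed): it recovered 80% of changes of 1 log2 unit and 97% of changes of 2, and 8.76% of its calls were false, above the 5% that the threshold sets. The changed genes were drawn from those above a minimum mean count, so the recovery does not cover genes with few fragments. These shares come from 1 simulated set. Promoters are RefSeq sequences on GRCm38.p6, where 11213 of the genes tested had one. Figures were drawn with matplotlib 3.10.9, and tables made with pandas 2.3.3 in Python 3.11.15.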

Additional observations from a re-analysis of the deposited data

Results flagged for a closer look

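Genes below are named above and passed the test of the difference between sites, where the fitted log2 change with PLX4720 in primary lines minus that in metastasis lines is the value given (edgeR interaction contrast, n = 3 lines per site). Groups of 3 are too small for a search for single outlying libraries.

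The change passed in opposite directions at the 2 sites for Adamts7, Slc22a4, Pmaip1, Jun and Gclc, which rose in primary lines, with differences of 2.41, 2.17, 2.23, 1.96 and 0.85, and for Cdh17, Aqp5, Adam9 and Oasl1, which fell there, with differences of -2.86, -2.61, -0.999 and -1.18. Jun, an AP-1 subunit, had a change of 1.09 in primary lines and -0.87 in metastasis lines. Fgfr3, Rflna and Has2 passed in the primary lines and not in the metastasis lines, with differences of 2.31, 2.22 and -2.66. Calcrl and Cth fell more in primary lines, with differences of -2.04 and -0.97.

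Less of a rise in primary lines gave differences of -4.91, -2.87, -2.84, -2.76 and -2.51 for Igf1, Icam1, Edn1, Cyp1b1 and Aldh1a7. For the matrix and protease genes Col12a1, Adamts1, Mme, Thbs1 and Col4a5 the differences were -2.10, -1.79, -1.69, -1.27 and -0.85. The YAP/TAZ and contractile genes Vgll3, Amotl2, Ccn1 and Myh9 had differences of -1.58, -1.38, -1.24 and -0.62, and the interferon response genes Parp14, Stat2, Parp9 and Ifih1 of -1.41, -1.22, -0.95 and -0.85. Nrg1 and Dtx4 had -1.13 and -0.78. Less of a fall in primary lines gave 2.70, 2.50 and 2.24 for Sh2d5, Phlda2 and Upp1.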

How the results depend on the processing

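The 1362 calls in primary lines became 2052 without the filter on low counts and 2491 with the primary libraries fitted alone, and ran from 91 (without T1) to 2252 (without M1) with 1 line left out. The 487 differences between sites became 920 with DESeq2 and 996 without the filter, and ran from 122 (without T2) to 798 (without M1). Without the replicate block, that is with the libraries of a line not paired, 1 gene was called in primary lines, Tgfb2, and 0 differed between sites (edgeR; 399 and 279 at an unadjusted p under 0.05). Counts under DESeq2 size factors, upper-quartile factors, the DESeq2 test, a stricter filter and no mitochondrial genes lay between 1275 and 1882 in primary lines. Of 180 called genes named above, 30 passed without any 1 of the 6 lines, while 146, 125 and 104 missed the threshold without T1, T2 and T3 and 0, 19 and 3 without M1, M2 and M3, which enter through the shared spread. DESeq2 size factors and the DESeq2 test ended 4 and 3 of these calls, leaving out mitochondrial genes 0, and a stricter filter 5 of the 171 it kept. Under the alternatives run no change of these genes turned sign, where the stricter filter gave values for 171 of them and the primary libraries alone for 178. Genes under 1 CPM rest on few fragments, and for the others the number of lines limits the precision.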

Other observations

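Ribosomal RNA features made up most of the genes whose change varied most between T1, T2 and T3, among those with a mean log2 CPM of at least 4. The mitochondrial mt-Rnr2 and mt-Rnr1 stood at 26337 and 7219 CPM in T3 with PLX4720, against 3174 to 4778 and 286 to 571 CPM in the other 5 primary libraries. Lars2, which shares sequence with mitochondrial ribosomal RNA in the mouse annotation, was at 199 CPM there and at 11.8 to 41.0 CPM elsewhere, and Mir6236 at 74.3 against 4.96 to 49.4 CPM. CT010467.1 and n-R5-8s1, which hold cytoplasmic ribosomal RNA, moved otherwise, with 1761 and 509 CPM in T1 with DMSO and 272 and 278 CPM in T1 with PLX4720. None of these features passed the test in primary lines (edgeR adjusted p = 0.207 to 0.988), and whether the libraries differ in removal of ribosomal RNA was not tested.

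Protein-coding genes among the same 8 were Angptl4 and Dock4 besides Lars2. Angptl4, an inhibitor of lipoprotein lipase induced by fasting and hypoxia, went from 65.2, 41.6 and 197 to 13.6, 57.3 and 86.4 CPM in T1, T2 and T3, so it fell in T1 and T3 and not in T2. Dock4, an activator of Rac, went from 33.9, 33.6 and 12.4 to 14.7, 25.0 and 25.8 CPM, lower in T1 and T2 and higher in T3.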
